A study of Mus musculus with 44 samples.

Results

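Mitochondrial ribosomal proteins are the protein part of the ribosome that works inside mitochondria. The genes described here are the protein-coding autosomal mouse genes whose symbols are Mrpl or Mrps followed by a number. The RefSeq gene table holds 78 of them among 20665 protein-coding autosomal genes, 49 named Mrpl and 29 named Mrps. Membership follows the symbol alone and uses no measured value, but the genes were chosen with earlier results of these data known. Mrpl names mark proteins of the large subunit and Mrps names those of the small subunit, but Mrps18a and Mrps30 sit in the large subunit in spite of their names, and Mrps36 belongs to the alpha-ketoglutarate dehydrogenase complex. Statements on Mrpl and Mrps genes below follow the symbols.

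The mitochondrial ribosome translates the few messages of the mitochondrial genome, all of which encode subunits of the respiratory chain and the ATP synthase. Its RNA comes from the mitochondrial genome, whereas every one of its proteins is encoded in the nucleus, translated in the cytosol and imported. Among its proteins, Mrps12 lies at the decoding centre, Mrpl22 and Mrpl23 around the exit tunnel, Mrpl12 in the stalk and Mrpl38 and Mrpl18 in the central protuberance, while Mrpl45 anchors the ribosome to the inner membrane. Polg encodes the catalytic subunit of the polymerase that copies mitochondrial DNA, and the D181A change removes its proofreading.

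The study compared wild-type (WT) mice with Polg(D181A) mice, which carry this change. Which promoter or cell type drives the change, and whether the libraries of a group came from separate animals, is not given in the sources used here, so the spread between libraries may be technical and each p-value measures that spread alone. All mice were adult. Open chromatin was measured by ATAC-seq in the paraventricular thalamic nucleus (PVT) with 2 WT and 2 Polg(D181A) libraries. The strain labels of these libraries read C57BL/7 and C57BL/8 for WT and C57BL/9 and C57BL/10 for Polg(D181A). Acetylation of histone H3 at lysine 27 (H3K27ac), a mark of active promoters and enhancers, was measured with 2 libraries of each genotype in the PVT, the cortex (COR), the caudate putamen (CP) and the nucleus accumbens (NAC) of C57BL/6 mice. For both assays nuclei were stained for the neuronal protein NeuN and sorted. RNA was sequenced from the PVT of C57BL/6 mice in 5 groups of 4 libraries: WT euthymic COX-positive, Polg(D181A) euthymic COX-positive, Polg(D181A) euthymic COX-negative, Polg(D181A) depressive COX-positive and Polg(D181A) depressive COX-negative. Euthymic and depressive name the behavioural state, and COX staining shows cytochrome c oxidase, a respiratory chain enzyme with subunits made on mitochondrial ribosomes.

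The ATAC libraries held 2932270 to 8040451 counts in peaks, the H3K27ac libraries 6415127 to 197650530 and the RNA libraries 26719334 to 115285349. Levels are given below as CPM, counts per 1000000 counts of a library after the trimmed-mean scaling of edgeR. Depth was least even in the CP and the NAC, where WT library 2 was at 0 in 39 of the 58 CP peaks and 31 of the 67 NAC peaks near these genes. Among markers, 6 of 6 neuronal genes had a peak near a gene end in every table except the CP (5 of 6). Midline thalamus markers had 6 of 6 in PVT ATAC and 5 of 6 in PVT H3K27ac against 1 of 6 in each other region. Cortex markers had 6 of 6 in the COR, 4 of 6 in the CP, 2 of 6 in the NAC and 1 of 6 in each PVT table. Striatal markers had 7 of 7 in the CP but also 5 of 7 in the NAC and in each PVT table, and 4 of 7 in the COR. Peaks of other cell types were present in the sorted nuclei: 2 to 4 of 6 astrocyte, 2 or 3 of 5 oligodendrocyte, 1 to 3 of 4 vessel, 0 or 1 of 2 oligodendrocyte precursor and 0 or 1 of 6 microglial genes per table. In RNA, the summed level of 6 neuronal markers ran from 142 to 2390 CPM of 6 astrocyte markers from 48.2 to 1190 CPM and of 6 microglial markers from 4.77 to 263 CPM, and the part of cell makeup in the RNA results was not tested. In bulk libraries, fewer cells of a type and less RNA per cell cannot be told apart.

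Peaks were assigned to a gene when they lay within 1000 bp of either of its ends on mm10. Such gene-end peaks were listed for 72 of the 78 genes in PVT ATAC (92.3%), 58 in PVT H3K27ac (74.4%), 52 in the COR (66.7%), 46 in the CP (59.0%) and 56 in the NAC (71.8%). Over all protein-coding autosomal genes the shares were 60.4%, 56.5%, 53.8%, 42.1% and 51.6%. The 79 cytosolic ribosomal protein genes had 91.1% in ATAC and 88.6% in PVT H3K27ac, and 84 nuclear oxidative phosphorylation genes 90.5% and 82.1%. The 6 genes with no gene-end ATAC peak were Mrpl4, Mrpl18, Mrpl24, Mrpl35, Mrps23 and Mrps34. For Mrpl18, Mrpl24 and Mrps23 a peak lay within 1000 bp of a RefSeq start site instead.

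**Figure D1:**
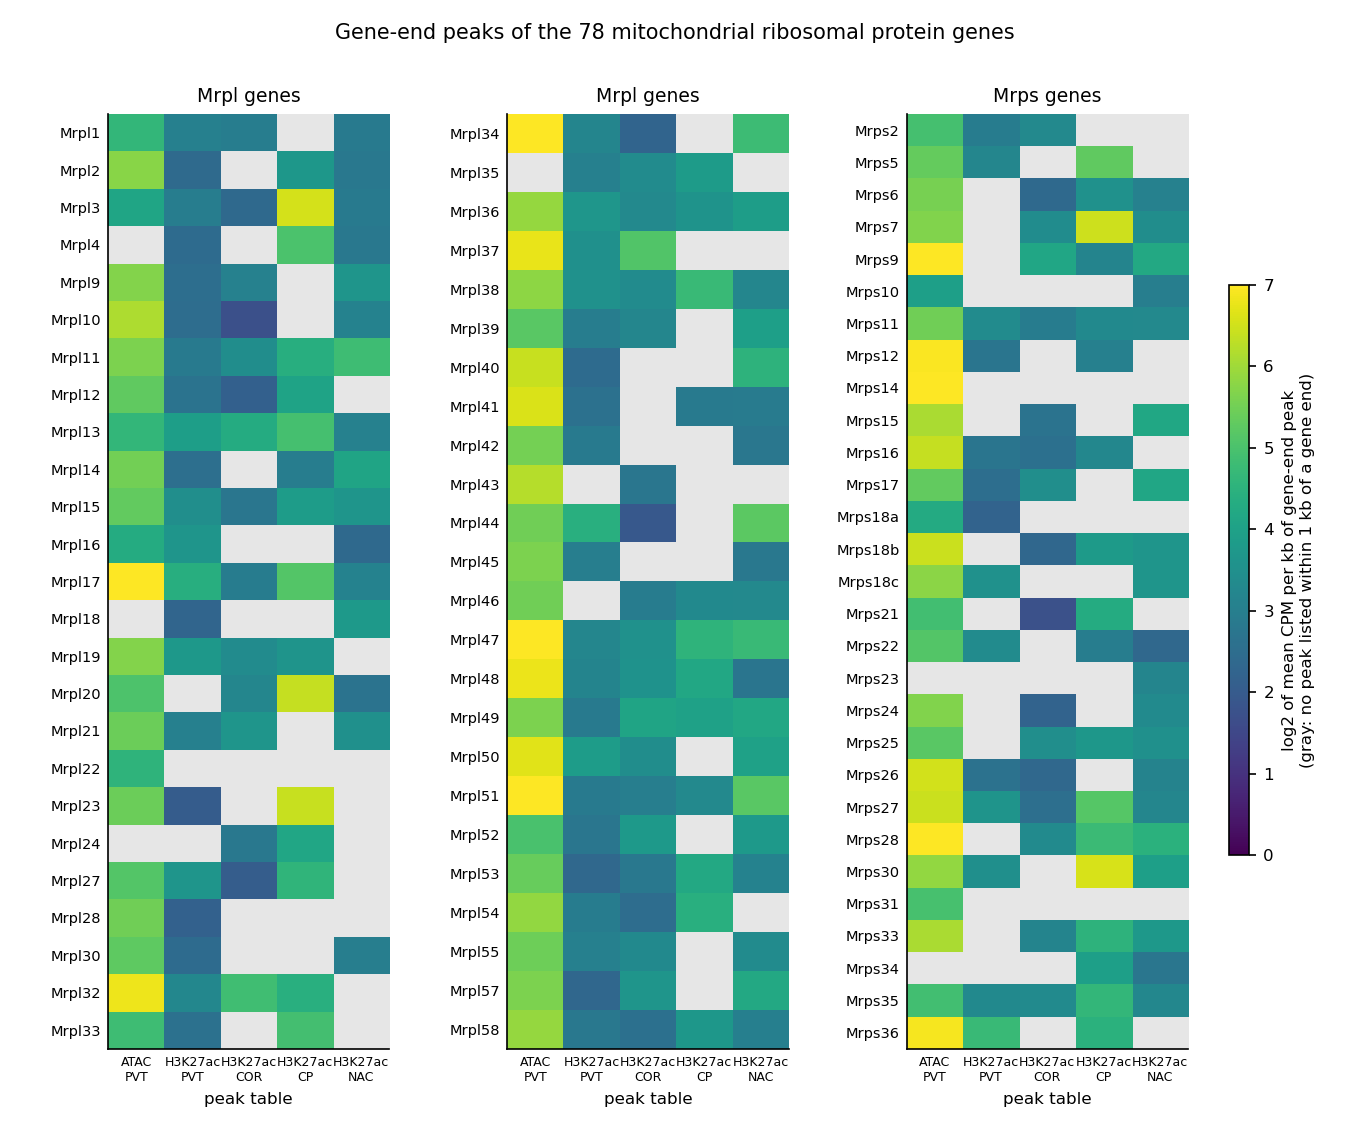
Gene-end peaks of the 78 genes, with Mrpl genes and Mrps genes in separate panels, genes in rows and the 5 peak tables in columns. Colour gives the log2 of the mean CPM per kb of peak over the 4 libraries of a table, and gray marks a gene with no listed peak; in the PVT H3K27ac column 5 Mrpl and 15 Mrps genes are gray.

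Large- and small-subunit genes had unlike shares in PVT H3K27ac. There, 44 of 49 Mrpl genes (89.8%) but 14 of 29 Mrps genes (48.3%) had a gene-end peak. In the other tables the shares lay closer together, with 91.8% and 93.1% in ATAC, 71.4% and 58.6% in the COR, 57.1% and 62.1% in the CP and 73.5% and 69.0% in the NAC. The split depended on the window. With 500 bp it was 43 of 49 (87.8%) against 13 of 29 (44.8%), with 51.9% of all genes. With 2000 bp it was 47 of 49 (95.9%) against 20 of 29 (69.0%), with 61.9% of all genes, so that the Mrps share lay below that of all genes at 500 and 1000 bp and above it at 2000 bp. Counting peaks near a RefSeq start site too gave 46 of 49 Mrpl and 15 of 29 Mrps genes in PVT H3K27ac. The 17 genes then still without a peak were Mrpl20, Mrpl43, Mrpl46, Mrps6, Mrps7, Mrps9, Mrps10, Mrps14, Mrps15, Mrps18b, Mrps21, Mrps24, Mrps25, Mrps28, Mrps31, Mrps33 and Mrps34. No test was made of this split, which was seen in the same data that describe it.

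Most genes without a PVT H3K27ac peak had peaks in the other tables. Of the 20 with no gene-end peak there, 17 had an ATAC peak in the same nucleus, 14 a COR, 12 a CP and 14 a NAC peak. Their ATAC level had a median of 51.4 CPM per kb of peak, against 48.8 for the 58 genes with a PVT H3K27ac peak. Among the genes with peaks in the COR, the CP and the NAC together, 7 of 10 Mrps genes (70.0%) and 2 of 15 Mrpl genes (13.3%) had none in the PVT. Over all genes that share was 717 of 5602 (12.8%).

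H3K27ac gene-end peaks in all 4 regions were listed for 16 of the 78 genes (20.5%), close to the 23.6% of all genes, and 35 (44.9%) had them in 3 regions against 21.7% of all genes. Only 3 genes (3.85%) had no H3K27ac gene-end peak in any region, against 25.1% of all genes. These were Mrpl22, a protein of the exit tunnel, Mrps14 and Mrps31. From a RefSeq start of Mrpl22, however, the nearest H3K27ac peak was 5 bases away in the COR and 338 in the PVT, and from that of Mrps31 378 bases away in the NAC, which leaves Mrps14 as the 1 gene with none within 1000 bp of an end or a start. The start of Mrps14 was open in the PVT: its ATAC peak at chr1:160194860-160195289, which covers it, had 75.9 and 60.4 CPM in the WT and 77.7 and 46.3 CPM in the Polg(D181A) libraries. All 4 libraries were high and the genotypes overlapped. At 151 CPM per kb, the mean stood at the 97.0th percentile of genes with a gene-end ATAC peak. The nearest H3K27ac peak was 17347 bases from its start in the PVT, 7643 in the COR, 14101 in the CP and 10314 in the NAC.

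RefSeq promoter windows, which run from 250 bases before to 50 after a start site, were at hand for 69 of the 78 genes, and missing for Mrpl4, Mrpl13, Mrpl15, Mrpl19, Mrpl38, Mrpl54, Mrps28, Mrps34 and Mrps35. An ATAC peak covered the start site itself in 61 of 69 (88.4%), against 46.9% of all genes with a window. An H3K27ac peak covered it in 34 in the PVT (49.3%, against 40%) and 34 in the COR (49.3%, against 36.2%). In the CP it was 19 (27.5%, against 18.2%) and in the NAC 33 (47.8%, against 35.7%). Read along the gene, ATAC coverage was highest at the start site (87.0% of genes). PVT H3K27ac coverage was 49.3% at the start site and highest 150 bases downstream of it (66.7%). Over all genes the positions were alike. ATAC coverage was highest 50 bases upstream (44.7%, with 44.0% at the start site). PVT H3K27ac coverage was highest 150 bases downstream (40.7%, with 38.0% at the start site). A PVT H3K27ac peak lay within 1000 bp of the start of 40 of 43 Mrpl genes (93%) and 12 of 26 Mrps genes (46.2%). Over all genes with a window that share was 52.7%, so the Mrps share lay near it.

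**Figure D2:**
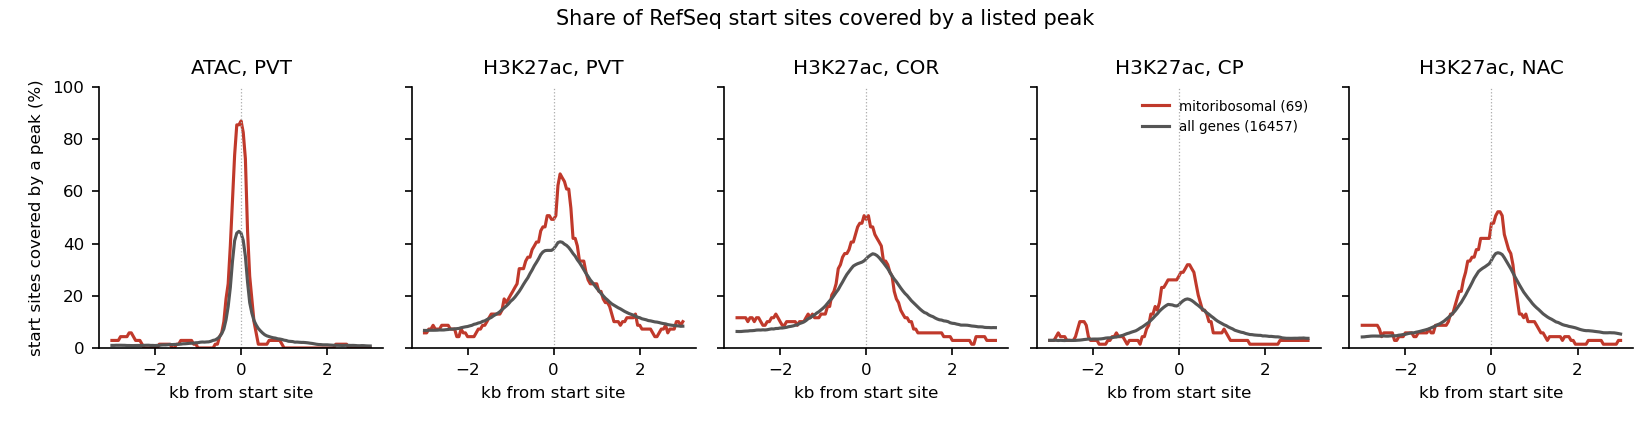
Share of RefSeq start sites covered by a listed peak (y axis, percent) by distance from the start site in kb (x axis), 1 panel per peak table, for the 69 genes with a window and for all protein-coding autosomal genes. ATAC coverage of the 69 genes reaches 87.0% at the start site, and PVT H3K27ac coverage 66.7% at 150 bases downstream. Over all genes ATAC coverage is highest at 50 bases upstream (44.7%) and PVT H3K27ac coverage at 150 bases downstream (40.7%).

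Many of these genes start beside another gene. Of the 69 genes with a window, 25 (36.2%) had the start of another gene on the opposite strand up to 1000 bp upstream (or up to 50 bases past their own start), with a median distance of 131 bases, against 8.85% of all 16457 genes with a window. Mrpl46 and Mrps11, a large- and a small-subunit gene, start 42 bases apart. Mrpl43 starts 116 bases from Twnk, the mitochondrial DNA helicase, and Mrpl47 starts 308 bases from Ndufb5, a complex I subunit. Mrps12 starts 147 bases from Sars2, the mitochondrial seryl-tRNA synthetase, and Mrps27, a pentatricopeptide repeat protein, 108 bases from Ptcd2 of the same kind. Mrpl32, whose product is matured by the m-AAA protease, starts 205 bases from the proteasome gene Psma2. A peak near such a pair belongs to both genes, and 37 of the 81 ATAC peaks near these genes also lay near the end of another gene.

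Letters of known promoter motifs were counted on both strands of the windows. The ETS core CCGGAAG was in 26 of 69 windows (37.7%) against 13.3% of all windows, the NRF1 motif (GCGCA and GCGC with any 1 base between them) in 13 (18.8%) against 7.39%, and the YY1 motif (AAGATGG followed by CGG) in 5 (7.25%) against 1.39%. The GC box GGGCGG was in 49.3% of windows against 50.3%, the cyclic AMP element TGACGTCA in 2.9% against 2.63%, the E-box CACGTG in 7.25% against 9.01% and the TATA letters TATAAA in 7.25% against 15%. NRF1 is known as a regulator of nuclear genes for mitochondrial proteins, and the ETS core is also that of GABP. Of the genes with a PVT H3K27ac gene-end peak, 20 of 51 held the ETS core and 11 the NRF1 motif, and of those without 6 of 18 and 2. A match is a description of the letters and not a binding site.

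The promoter windows of 7 genes are printed, because Mrpl46 and Mrps11 share 1 promoter region, Mrpl12 holds the NRF1 motif, Mrps18a, Mrps18b and Mrps18c are paralogues with unlike peaks, and Mrps14 has a strong ATAC peak and no H3K27ac peak nearby. They are RefSeq sequences on GRCm38.p6 (mm10), 5′ to 3′ on the strand of the gene, with the motifs above in capitals. They lie at chr7:78783040-78783339 on the minus strand (Mrpl46), chr7:78782881-78783180 plus (Mrps11), chr11:120484387-120484686 plus (Mrpl12), chr17:46110754-46111053 plus (Mrps18a), chr17:35916391-35916690 minus (Mrps18b), chr5:100798509-100798808 plus (Mrps18c) and chr1:160194965-160195264 plus (Mrps14).
Mrpl46: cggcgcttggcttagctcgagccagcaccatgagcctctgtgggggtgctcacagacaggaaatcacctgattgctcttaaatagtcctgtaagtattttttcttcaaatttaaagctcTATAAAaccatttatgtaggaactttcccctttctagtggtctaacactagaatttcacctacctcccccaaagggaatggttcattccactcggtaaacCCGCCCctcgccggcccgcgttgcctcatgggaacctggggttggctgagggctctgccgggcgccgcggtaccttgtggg
Mrps11: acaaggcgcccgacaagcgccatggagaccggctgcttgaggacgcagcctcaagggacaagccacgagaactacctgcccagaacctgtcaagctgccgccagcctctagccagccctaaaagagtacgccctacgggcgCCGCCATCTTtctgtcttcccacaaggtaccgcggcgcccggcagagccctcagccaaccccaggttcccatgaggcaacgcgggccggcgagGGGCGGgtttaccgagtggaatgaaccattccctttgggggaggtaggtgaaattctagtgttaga
Mrpl12: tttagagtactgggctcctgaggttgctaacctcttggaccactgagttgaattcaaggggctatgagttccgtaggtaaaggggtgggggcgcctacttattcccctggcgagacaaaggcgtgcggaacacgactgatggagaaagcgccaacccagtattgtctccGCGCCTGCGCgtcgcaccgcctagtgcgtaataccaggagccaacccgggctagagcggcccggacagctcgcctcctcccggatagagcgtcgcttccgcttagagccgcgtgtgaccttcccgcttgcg
Mrps18a: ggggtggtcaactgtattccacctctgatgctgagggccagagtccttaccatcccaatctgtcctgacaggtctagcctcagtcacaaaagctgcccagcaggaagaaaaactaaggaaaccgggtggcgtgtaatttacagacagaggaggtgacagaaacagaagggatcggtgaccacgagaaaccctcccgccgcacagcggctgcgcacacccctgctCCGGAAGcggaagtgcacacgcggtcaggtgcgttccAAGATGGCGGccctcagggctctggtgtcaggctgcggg
Mrps18b: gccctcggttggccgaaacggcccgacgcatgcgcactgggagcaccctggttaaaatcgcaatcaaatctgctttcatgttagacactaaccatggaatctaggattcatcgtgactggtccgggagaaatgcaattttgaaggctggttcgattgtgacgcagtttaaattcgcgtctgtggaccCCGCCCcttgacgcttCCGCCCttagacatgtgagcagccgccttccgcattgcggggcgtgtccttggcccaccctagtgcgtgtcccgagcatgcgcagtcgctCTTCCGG
Mrps18c: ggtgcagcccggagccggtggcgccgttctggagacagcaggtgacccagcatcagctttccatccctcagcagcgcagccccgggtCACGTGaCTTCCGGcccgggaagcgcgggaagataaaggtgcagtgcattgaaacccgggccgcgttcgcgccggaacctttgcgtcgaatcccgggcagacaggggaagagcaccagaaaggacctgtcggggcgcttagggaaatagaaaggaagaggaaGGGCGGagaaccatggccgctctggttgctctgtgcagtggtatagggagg
Mrps14: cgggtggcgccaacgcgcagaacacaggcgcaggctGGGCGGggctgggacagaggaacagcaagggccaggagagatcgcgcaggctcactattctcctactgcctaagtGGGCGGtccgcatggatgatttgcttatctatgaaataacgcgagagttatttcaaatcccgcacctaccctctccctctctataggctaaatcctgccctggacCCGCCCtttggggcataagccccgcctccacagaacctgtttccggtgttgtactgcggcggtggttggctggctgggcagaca

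The Mrpl46 window holds a GC box and the TATA letters, and the Mrps11 window a YY1 motif and the same GC box read from the other strand. In the Mrpl12 window the capitals mark 1 NRF1 motif. Mrps18a holds an ETS core and a YY1 motif, Mrps18b an ETS core and 2 GC boxes, Mrps18c an E-box, an ETS core and a GC box, and Mrps14 3 GC boxes.

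The shared region of Mrpl46 and Mrps11 carried 1 ATAC peak, at chr7:78782950-78783378, with 24.2 and 18.9 CPM in WT and 12.9 and 20.4 CPM in Polg(D181A) libraries, so that the genotypes overlapped. H3K27ac peaks lay over it in the COR and the CP. In the PVT the nearest H3K27ac peak was 9161 bases from the Mrpl46 start, and lay at chr7:78792250-78792400 near the far end of Mrps11.

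Mrps18a, Mrps18b and Mrps18c differed in where a peak was listed. Mrps18a had an ATAC peak at chr17:46110841-46111290 with 4.87 and 7.78 CPM in WT and 9.56 and 12.8 CPM in Polg(D181A) libraries, both Polg(D181A) values being higher. In H3K27ac it had a peak in the PVT only (5.11 and 11.6 against 10.5 and 8.89 CPM). Mrps18b had its strongest ATAC peak at chr17:35916628-35916967, shared with Ppp1r10, with 45.3 and 50 CPM in WT and 43.9 and 40.4 CPM in Polg(D181A) libraries. It had H3K27ac peaks in the COR, the CP and the NAC and none listed in the PVT. Mrps18c, which starts 159 bases from the helicase gene Helq, had an ATAC peak of 15.5 and 18.2 CPM in WT and 20.4 and 23.7 CPM in Polg(D181A) libraries, and H3K27ac peaks in the PVT and the NAC. None of these genotype differences passed (edgeR's quasi-likelihood test; smallest adjusted p of the ATAC peaks 0.798).

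Per kb of peak, the genes were near the middle of all genes with a peak. The median was 48.9 CPM per kb in ATAC (15.5 to 194) against 44.8 over all genes, 7.84 against 7.24 in PVT H3K27ac, 8.64 against 7.67 in the COR, 18.7 against 17.1 in the CP and 10.2 against 10.7 in the NAC. Cytosolic ribosomal protein genes had a median of 66.2 and oxidative phosphorylation genes of 58.8 CPM per kb in ATAC. The highest ATAC levels belonged to Mrpl51 (194 CPM per kb), Mrpl47 (169), Mrps14 (151), Mrps9 (150) and Mrpl17 (134), and the lowest to Mrps10 (15.5), Mrpl3 (17.5) and Mrps18a (19.4). H3K27ac levels were averaged over the 4 regions, counting a region without a listed peak as no signal. Mrps30 (30.5 CPM per kb), Mrpl3 (28.6), Mrps7 (27.5) and Mrpl20 (24.8) were highest. Each of those means was carried by a short CP peak of 251 to 387 bp, at 83.7 to 95.3 CPM per kb. The lowest were Mrpl22, Mrps14 and Mrps31, with no gene-end peak, and Mrpl28 (1.13), with a peak listed in the PVT only. These low means come from missing peaks and are not levels per kb of a listed peak.

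The genes always followed here gave these levels. Mrpl12, which also binds the mitochondrial RNA polymerase, had 39.1 CPM per kb in ATAC and 6.33 in PVT H3K27ac, with a COR and a CP peak and none listed in the NAC. Mrpl58, a peptidyl-tRNA hydrolase built into the large subunit that frees stalled chains, had 59.6 in ATAC and 6.99 in PVT H3K27ac and peaks in every region. Mrps36 had 120 in ATAC, 27 in PVT H3K27ac and 22.2 in the CP, with no peak listed in the COR or the NAC.

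Acetylation was compared between regions for the 4885 genes with a gene-end peak in all 4 H3K27ac tables, 16 of them among the 78 (13 Mrpl and 3 Mrps). Counts were summed per gene, with CPM here taken over these sums alone, and genotype was a term of the edgeR fit. The test called 0 of the 16 for the PVT against the other regions (background 3.93%), 0 for the COR against the CP and the NAC (0.655%) and 0 for the CP against the NAC (0.0%). At an unadjusted p under 0.05 there were 0, 1 and 0, and DESeq2 called 0 in each (background 9.25%, 5.24% and 4.95%). Their median log2 differences were 0.27, 0.63 and 0.79, against 0.26, 0.26 and −0.22 over all 4885 genes. The 1 gene was Mrpl38, named after its value was seen. It had 411, 384, 441 and 195 CPM in the COR, 73.0, 0, 101 and 24.0 in the CP and 203, 60.0, 98.7 and 291 in the NAC. The COR values lay above all of the CP ones but overlapped the NAC ones (log2 difference 2.06, SE 0.928, adjusted p = 0.467, edgeR). Such sums move with the called peak length, which was 3820 bp in the COR, 263 bp in the CP and 2604 bp in the NAC. Per kb of peak the mean was 93.6 CPM in the COR, 188 in the CP and 62.6 in the NAC, so COR against CP turned round. With the called length as an offset, edgeR called 0.0% of the 4885 genes in each of the contrasts.

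No gene-end peak of the 78 genes changed between WT and Polg(D181A) by edgeR's quasi-likelihood test in any of the 5 tables. The counts were 0 of 81 peaks in ATAC (background 0.00114% of all peaks tested), 0 of 72 in the PVT (0.0%), 0 of 60 in the COR (0.0%), 0 of 49 in the CP (0.0%) and 0 of 61 in the NAC (0.00476%). At an unadjusted p under 0.05 there were 2, 3, 3, 2 and 0, and the smallest adjusted p was 0.798, 0.556, 0.535, 0.373 and 0.998. Median log2 changes were −0.03, 0.19, −0.11, 0.21 and −0.38, against −0.02, 0.00, −0.12, 0.25 and −0.07 over all gene-end peaks. ATAC bounded changes most tightly: the 95% interval lay within 2-fold either way for 41 of 81 ATAC peaks, 6 of 72 PVT peaks and 0 in the other tables. Median standard errors on the log2 scale were 0.362 in ATAC, 0.622 in the PVT, 2.01 in the COR, 3.99 in the CP and 2.85 in the NAC.

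DESeq2, run as an alternative, called 0 peaks in ATAC (against 0.00342% of all peaks), 4 in the PVT (5.56%, against 10.1% of all peaks), 3 in the COR (5.0% against 17.5%), 9 in the CP (18.4% against 26.4%) and 1 in the NAC (1.64% against 1.7%). These shares are not a like comparison, because all peaks tested include peaks far from gene ends. In PVT H3K27ac, a library was at 0 in 13.9% of the gene-end peaks of these genes and in 30.3% of all peaks. A DESeq2 share over gene-end peaks alone is not given here. In the CP, the edgeR calls moved once WT library 1 was left out. That fit rests on WT library 2 alone, assumed to vary like the Polg(D181A) ones. This library was at 0 in 39 of the 58 CP peaks near these genes and in 5921 of all 9584 gene-end peaks. The share of calls over all peaks is not given for that fit, so it cannot be read as a result about these genes.

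Both genotypes' libraries failed to overlap, in either direction, for 22 of 81 ATAC peaks (against 33.1% of all gene-end peaks). Of these, 9 were higher in Polg(D181A) (background 14.9%) and 13 lower (18.2%). In the PVT 19 were higher and 10 lower (41.4% of all gene-end peaks, 20.4% higher and 21% lower). In the COR 14 were higher and 15 lower (37.4%, 17.2% and 20.2%), in the CP 11 and 8 (30.3%, 19.2% and 11.1%) and in the NAC 6 and 15 (32.5%, 13.2% and 19.3%). Of the 15 PVT H3K27ac peaks of Mrps genes, 13 had an estimate above 0, with a median of 0.615. For Mrpl genes it was 30 of 57 (median 0.03) and for all gene-end peaks 6451 of 12850 (median 0.003). WT library 2 was at 0 in 9 of the 72 PVT peaks of both families, and each Polg(D181A) library in 0. Over all 12935 gene-end peaks WT library 2 was at 0 in 610 and the Polg(D181A) libraries in 701 and 409. The part of libraries at 0 in these estimates was not tested. None of the 15 passed, and the difference between the families was not tested.

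**Figure D3:**
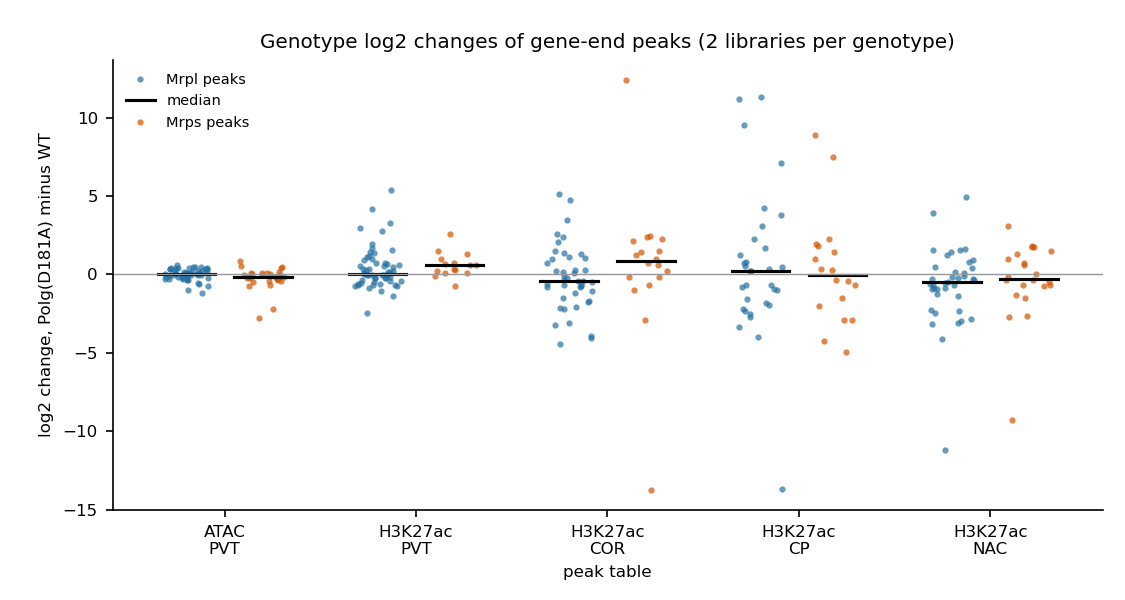
Log2 change of each gene-end peak between Polg(D181A) and WT (y axis) in the 5 peak tables (x axis), with Mrpl and Mrps genes in separate colours. ATAC estimates lie between −2.75 and 0.865, those of the CP between −13.7 and 11.3, where libraries at 0 set the estimate.

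The ATAC peaks of smallest p were near Mrps25, Mrpl58 and Mrps10. Mrps25, a protein of the small subunit, had 9.99 and 3.70 CPM in WT and 1.81 and 0.444 CPM in Polg(D181A) libraries at chr6:92168792-92169120 (log2 change −2.75, SE 0.969, adjusted p = 0.798, edgeR). Both Polg(D181A) values were lower there, while at the other end of the gene they were higher, with 26.3 and 22.9 CPM against 18.1 and 14.8. Mrpl58 had 20.6 and 16.3 against 4.91 and 12.9 CPM (−1.02, SE 0.47) and Mrps10 4.37 and 5.18 against 0.775 and 1.22 CPM (−2.20), with no overlap and with low counts in the latter.

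In PVT H3K27ac, the peak of Mrpl1, a protein of the L1 stalk, at chr5:96209105-96210827 had 6.05 and 7.55 CPM in WT and 26.2 and 16.9 CPM in Polg(D181A) libraries. Both Polg(D181A) libraries were higher (log2 change 1.66, SE 0.417, adjusted p = 0.556, edgeR; DESeq2 called it). At Mrpl39 the values were 2.45 and 3.74 against 8.5 and 9.82 CPM (1.57, SE 0.611). At Mrpl58, chr11:115403276-115405775, they were 28.3 and 24.9 against 15.3 and 16.8 CPM (−0.73, SE 0.293), and its ATAC peak inside this interval was lower in Polg(D181A) as well. DESeq2 called Mrpl39, Mrpl58 and, as the remaining peak of the 4, Mrpl23.

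In the other regions 7 of the 9 peaks of smallest p had a library at 0, the exceptions being those of Mrpl38 and of Mrpl18. In the COR, a peak between Mrpl38 and Trim65 had 20.9 and 38.6 CPM in WT and 2.48 and 1.35 CPM in Polg(D181A) libraries (log2 change −3.96, SE 1.13, adjusted p = 0.535, edgeR). Mrps2 had 1.63 and 26.8 against 0 and 0 CPM and Mrps33 0 and 0 against 7.15 and 4.06 CPM. In the CP, Mrpl20 had 14.6 and 69.4 against 0 and 0 CPM, the joint peak of Mrpl32 and Psma2 0.107 and 0 against 62.7 and 27.6 CPM, and that of Mrpl36 and Ndufs6 0 and 0 against 9.12 and 6.86 CPM. In the NAC, Mrpl55 had 7.83 and 14.7 against 0 and 0 CPM, Mrps33 4.77 and 1.20 against 0 and 0 CPM, and the joint peak of Mrpl18 and Tcp1 33.8 and 37.3 against 9.59 and 4.89 CPM (−2.30, SE 1.43). None passed by edgeR, and a log2 change against libraries at 0 is left out because it depends on the fit.

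RNA of these genes was low and uneven between libraries. All 78 were in the count table. Between 58 and 76 had a count in a library (median 70.5), and 17 to 70 had at least 10. The median gene had 0.0542 to 0.904 CPM, while the sum over the 78 genes ran from 114 to 1140 CPM. The 3 highest genes of a library held 23.3% to 89.8% of that sum (median 57.5%), and 13 different genes led the 20 libraries, Mrps28 in 6 of them. Of the 64 genes with enough counts to test, 33 (51.6%) had more than 50% of their CPM over the 20 libraries in 1 library, against 40.9% of all 28446 genes tested.

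**Figure D4:**
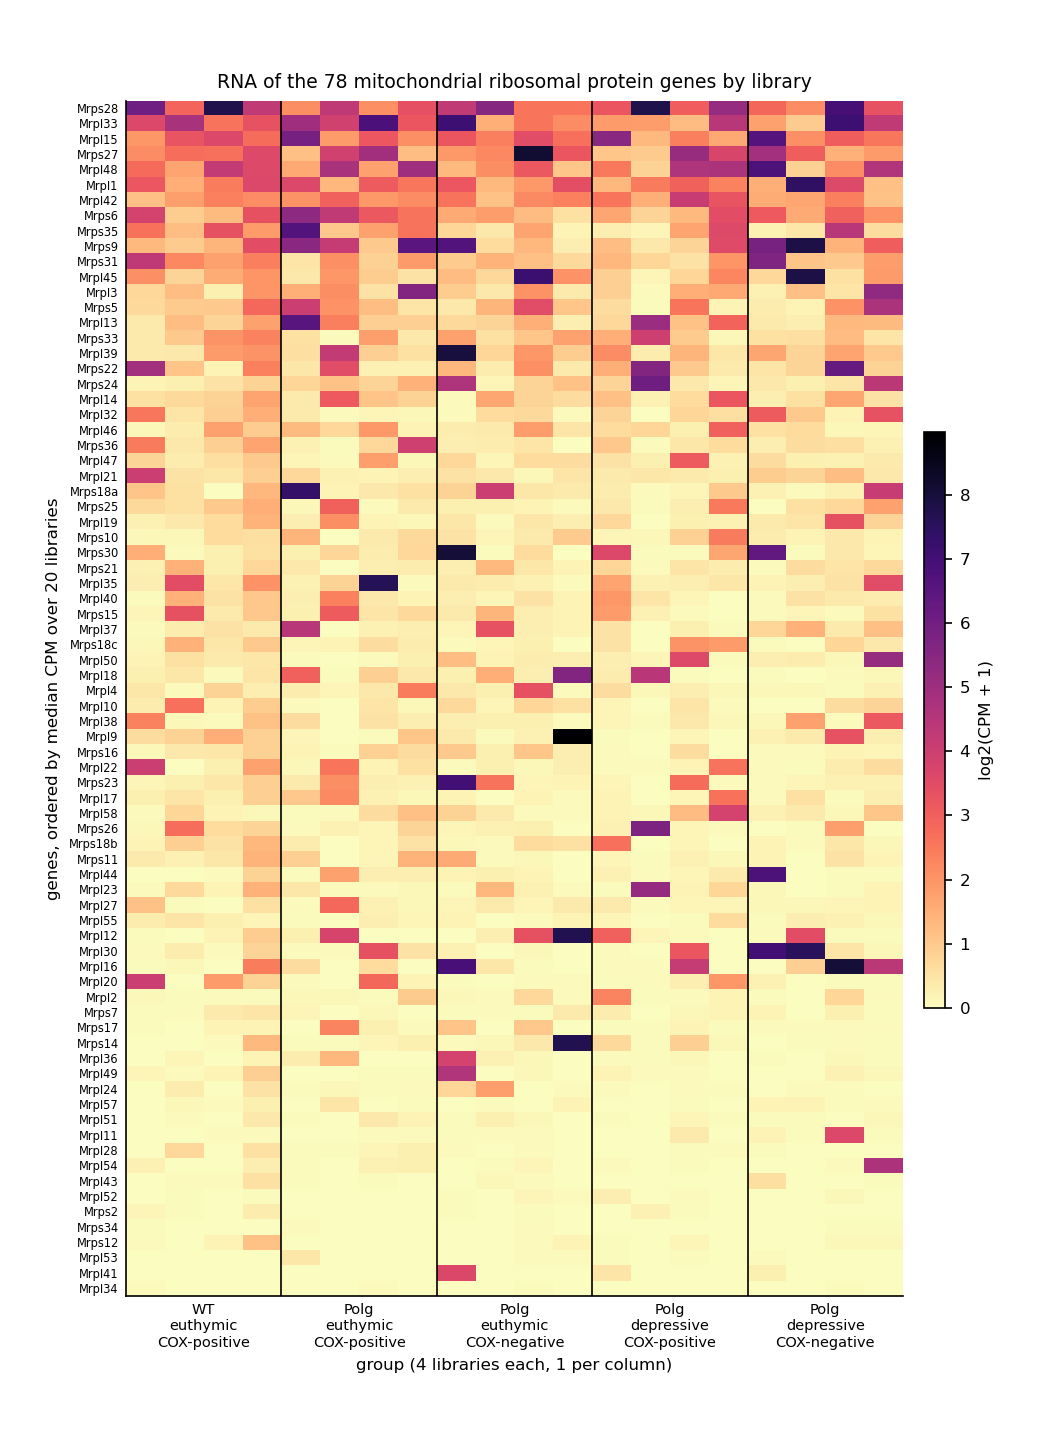
RNA level, log2(CPM + 1), of the 78 genes (rows, ordered by median CPM) in the 20 libraries (columns, 4 per group). High values stand in scattered single cells of the map, and the genes that lead differ between libraries of the same group.

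Mrps28 had the highest median, at 9.18 CPM. Across the 78 genes the median CPM rose with the length of the gene on the genome (Spearman rho 0.829, n = 78 genes that share the same libraries; a description). Per kb of gene span the highest were Mrpl33 (median 1.0 CPM per kb), Mrpl15 (0.447), Mrpl32 (0.198) and Mrps24 (0.187), and the lowest Mrps12 (0.00548), Mrps2 (0.0023) and Mrpl34 and Mrpl41, both at a median of 0. The lowest genes lay far below the highest even per kb. Mrpl12 had a median of 0.0872 CPM (0 to 205.5), Mrpl58 of 0.156 (0.0442 to 13), Mrps36 of 0.373 (0 to 14.3), Mrps18a of 0.342 (0 to 157.5), Mrps18b of 0.141 (0 to 5.45) and Mrps18c of 0.237 (0 to 3.05). Of the mitochondrial genome itself, 37 genes including both ribosomal RNAs are listed at 0 in all 20 libraries. Reads could also be split with near-identical copies: Mrpl23-ps1 had 2548 counts over 19 libraries and Mrpl48-ps 211 over 5, so the values of Mrpl23 and Mrpl48 are uncertain.

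RNA was compared in 7 ways that share groups, so their results are not independent. edgeR's quasi-likelihood test called 0 of 64 genes in each. The background was 1.24% of all genes for depressive against euthymic, mean of both COX classes, and 0.0% for the other 6. The 14 genes with too few counts were Mrpl11, Mrpl24, Mrpl28, Mrpl34, Mrpl41, Mrpl43, Mrpl49, Mrpl52, Mrpl53, Mrpl57, Mrps2, Mrps7, Mrps12 and Mrps34. Limma voom also called 0 of 64 in each comparison (background 0.0% to 0.00352%). The difference between the COX contrasts of depressive and euthymic samples (the interaction of COX class and state) was tested too. There edgeR called 0 of 64 (background 0.0%), with 14 at an unadjusted p under 0.05, limma voom 0 (0.0%) and DESeq2 6 (9.38%, background 8.39%). The smallest p was that of Mrps14 (log2 difference −12.51, SE 3.22, adjusted p = 0.0534, edgeR). Mrps14 stood high in 1 library of the euthymic COX-negative group, at a log2(CPM + 1) of 7.71 (nearest 0.413). With other size factors edgeR called Mrps14 alone (1.56%, background 1.33%). Without the filter on counts it called 7 of 78 genes (8.97%, background 3.11%), Mrps14 among them.

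For Polg(D181A) against WT in euthymic COX-positive samples, 7 of 64 genes had an unadjusted p under 0.05 and DESeq2 called 0 (background 5.33%). The median log2 change was 0.53, against −0.015 over all genes. Mrpl32 had 4.77, 0.379, 0.852 and 1.91 CPM in WT and 0.294, 0.0578, 0.108 and 0.0877 CPM in Polg(D181A) libraries. Every WT value was above every Polg(D181A) value, and it was the only one of the 64 genes with no overlap (background 2.66%; log2 change −3.83, SE 1.55, adjusted p = 0.26, edgeR). Mrpl21 had 15.3, 0.410, 0.355 and 0.843 against 0.648, 0.162, 0.144 and 0.219 CPM, high in 1 WT library (−3.84, SE 1.46). Mrpl13 had 0.288, 1.33, 0.710 and 2.44 against 92.8, 4.25, 0.843 and 0.855 CPM, high in 1 Polg(D181A) library (4.37, SE 1.74).

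For COX-negative against COX-positive samples of euthymic Polg(D181A) mice, 16 genes had an unadjusted p under 0.05 and the median was −0.55, against −0.103 over all genes. Mrps14 had 0.0541, 0.0883, 0.332 and 208.3 CPM in COX-negative and 0.0294, 0.0347, 0.108 and 0.197 CPM in COX-positive libraries. Mrpl9 had 0.298, 0.0353, 0.181 and 501.9 CPM in the same COX-negative libraries. Both highest values, and the 205.5 CPM of Mrpl12, came from library 4, in which 3 genes held 89.8% of the summed level and which had the lowest scaling factor of the 20 libraries (0.126, with a highest of 3.91 in WT library 4). Mrpl35 had 0.177, 0.751, 194.5 and 0.0657 CPM in the COX-positive libraries. The log2 changes were 9.13 (SE 2.56), 8.67 (SE 2.59) and −7.86 (SE 2.39), each with adjusted p = 0.123 (edgeR). Without the library that carried it, each estimate came closer to 0 or crossed it (0.767, −0.849 and −0.673). DESeq2 called 6 genes (9.38%, background 8.97%): Mrps23 as higher and Mrpl20, Mrpl30, Mrps6, Mrps35 and Mrps36 as lower. Mrps6 was the only gene with no overlap between the groups (background 3.06%), named after its values were seen. It had 2.00, 2.61, 1.39 and 0.447 CPM in COX-negative and 39.9, 18.3, 8.13 and 5.06 CPM in COX-positive libraries, every COX-positive value being higher.

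In depressive Polg(D181A) mice the same contrast gave 15 genes with an unadjusted p under 0.05 and a median of −0.01, against −0.026 over all genes. Mrpl23 had 0.0366, 35.5, 0.131 and 0.672 CPM in COX-positive libraries (log2 change −7.07, SE 2.12, adjusted p = 0.132, edgeR). Mrpl54 had 0, 0, 0.0536 and 24.9 CPM (7.83, SE 2.42) and Mrpl44, an RNase III-like protein, 108.3, 0, 0.0268 and 0.0263 CPM (7.36, SE 2.46) in COX-negative libraries. Each was high in 1 library. DESeq2 called 5 genes as higher (7.81%, background 8.65%): Mrpl19, Mrpl30, Mrpl32, Mrpl38 and Mrps9. Mrpl9 alone had no overlap (background 2.16%), named after its values were seen, with 0.165, 0.287, 8.85 and 0.224 CPM in COX-negative and 0.0366, 0, 0.118 and 0.0217 CPM in COX-positive libraries.

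For depressive against euthymic COX-positive samples, 8 genes had an unadjusted p under 0.05 and the median was −0.26, against −0.045 over all genes. Mrpl23, from the library with 35.5 CPM, was at 6.05 on the log2 scale (SE 2.01, adjusted p = 0.146, edgeR). Mrps18a had 157.5, 0.150, 0.323 and 0.460 CPM in euthymic libraries (−6.77, SE 2.41), and Mrpl35 the values given above (−6.04, SE 2.19). No gene had groups without overlap (background 1.99%), and DESeq2 called 1 gene, Mrps28, as higher (1.56%, background 7.82%).

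For depressive against euthymic COX-negative samples, 16 genes had an unadjusted p under 0.05 and the median was 0.14, against −0.124 over all genes. Mrpl30 had 129.2, 180.3, 0.376 and 0.0790 CPM in depressive and 0.162, 0, 0.0905 and 0 CPM in euthymic libraries, with 2 high depressive libraries (log2 change 10.15, SE 2.79, adjusted p = 0.0862, edgeR). Mrps23 had 0.0660, 0.120, 0.161 and 0.158 CPM in depressive and 130.2, 5.05, 0.121 and 0.149 CPM in euthymic libraries (−8.04, SE 2.38). Mrps14 was high in euthymic library 4 (−10.41, SE 2.70), and its groups did not overlap, nor did those of Mrpl18 and Mrps16, all lower in the depressive samples (background 2.48%; Mrpl18 and Mrps16 were named after their values were seen). DESeq2 called 6 genes (9.38%, background 10.3%): Mrpl19, Mrpl30, Mrpl32, Mrpl38 and Mrpl48 as higher and Mrps23 as lower. Microglial markers lay higher in the depressive samples of this contrast, with 6 of 6 estimates above 0 and a median log2 change of 3.47. Of these, 0 were called by edgeR and 3 had an unadjusted p under 0.05. Midline thalamus markers had 5 of 6 estimates below 0 (median −1.86), and cortex markers 5 of 6 (median −1.49), with 0 called by edgeR in either list. The part of these markers in the results was not tested.

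Over both states, 13 genes had an unadjusted p under 0.05 between COX-negative and COX-positive samples, with a median of −0.13 against −0.039 over all genes. Mrpl9 ran from 0.0353 to 501.9 CPM in the 8 COX-negative libraries (median 0.256) and from 0 to 1.10 CPM in the 8 COX-positive ones (median 0.0362). Of the COX-negative libraries 7 of 8 lay above the COX-positive median (log2 change 7.16, SE 1.72, adjusted p = 0.0538, edgeR). Mrpl45, the membrane anchor, ran from 0.456 to 228.7 (median 1.99) against 0.109 to 3.81 CPM (median 0.787), with 5 of 8 above (5.21, SE 1.42, adjusted p = 0.0554, edgeR). Mrpl13 ran from 0.224 to 1.78 (median 0.673) against 0.659 to 92.8 CPM (median 2.74), with 0 of 8 above (−4.22, SE 1.22, adjusted p = 0.0604, edgeR). Leaving out each library in turn moved the estimate of Mrpl9 between 2.4 and 8.5 and that of Mrpl45 between 2.44 and 5.92. These 3 genes lay just outside the threshold of 0.05. Mrpl9 and Mrpl45 passed it with other size factors or a stricter filter on counts (backgrounds 1.33% and 1.27%). DESeq2 called 3 genes (4.69%, background 9.21%): Mrpl16 and Mrpl32 as higher and Mrpl20 as lower. Cortex markers had 5 of 6 estimates below 0 here (median −2.85, 0 called by edgeR, 5 at an unadjusted p under 0.05). Midline thalamus markers had 5 of 6 below 0 (median −0.441) and neuronal markers 5 of 6 above 0 (median 0.761). The part of these markers was not tested.

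Between depressive and euthymic samples over both COX classes, 16 genes had an unadjusted p under 0.05, and the median was 0.09 against −0.056 over all genes. Mrpl36 ran from 0 to 0.0805 CPM in the 8 depressive libraries (median 0.0378) and from 0 to 12.9 CPM in the 8 euthymic ones (median 0.125). No depressive library exceeded the euthymic median (log2 change −4.71, SE 1.36, adjusted p = 0.0559, edgeR). Mrpl50 ran from 0.0325 to 35.1 (median 0.225) against 0 to 1.33 CPM (median 0.169; 4.73, SE 1.40, adjusted p = 0.0599, edgeR). Mrpl30 ran from 0.0181 to 180.3 (median 0.227) against 0 to 9.17 CPM (median 0.0820; 4.99, SE 1.58, adjusted p = 0.0708, edgeR). The euthymic median was exceeded in 5 of 8 depressive libraries for Mrpl50 and in 4 of 8 for Mrpl30. The groups overlapped for every one of the 64 genes in both averaged comparisons (backgrounds 0.0246% and 0.00703%). DESeq2 called 4 genes for state (6.25%, background 8.81%): Mrpl30 and Mrpl32 as higher and Mrps17 and Mrps23 as lower. Here too 6 of 6 microglial markers had an estimate above 0 (median 2.34, 0 called by edgeR, 3 at an unadjusted p under 0.05), against 3 of 6 in the COX-positive contrast (median 0.243), and their part was not tested.

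**Figure D5:**
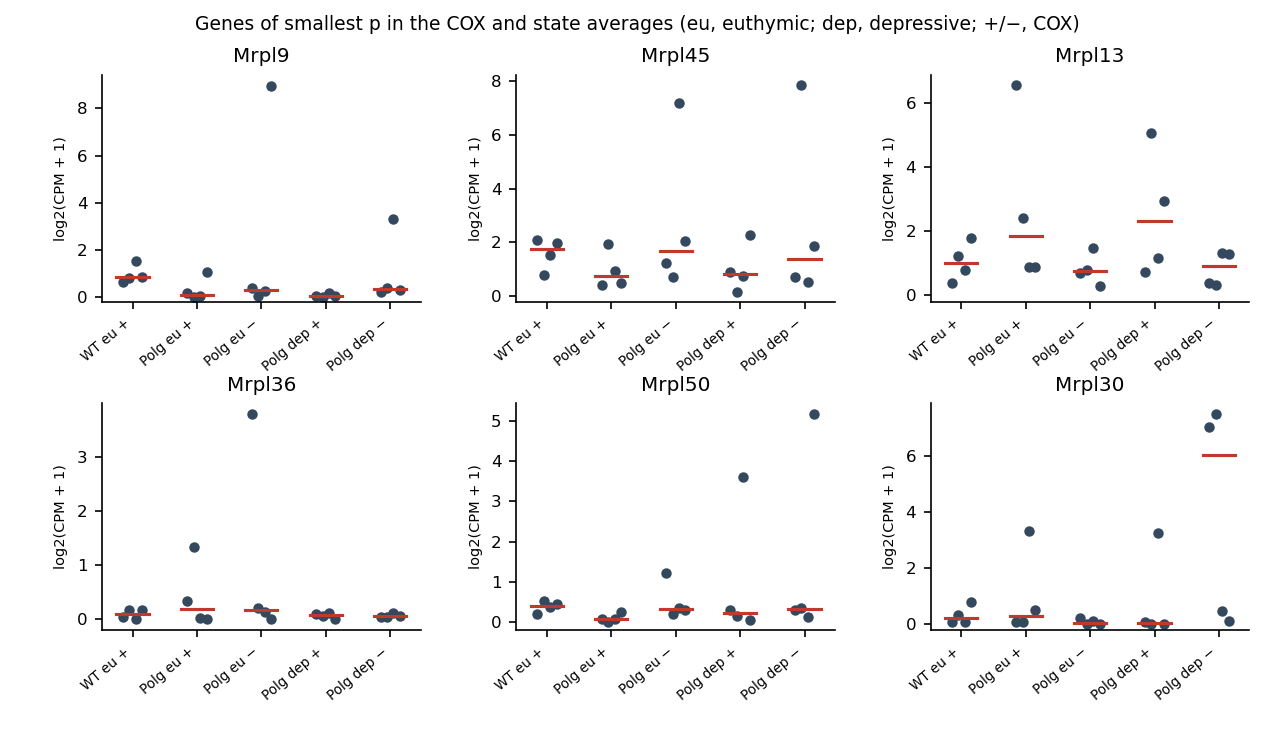
RNA level, log2(CPM + 1), of the genes of smallest p in the averaged COX and state comparisons (1 panel each), by group on the x axis, each point 1 of 4 libraries. Most points lie near 0 and 1 or 2 libraries of a group stand far above the rest.

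Genes that build or serve the same ribosome gave few calls. In the genotype comparisons of chromatin, edgeR called 0 peaks of the lists of mitochondrial translation factors and of assembly and rRNA modification factors. Of the 21 assembly and rRNA modification genes, 21 had a gene-end peak in ATAC and in PVT H3K27ac, and of the 13 translation factor genes 13 and 10. Over all genes the shares were 60.4% and 56.5%. In the COR, the CP and the NAC the assembly list had 15, 10 and 14 and the translation factors 10, 6 and 9. Over all genes the shares there were 53.8%, 42.1% and 51.6%. In RNA, edgeR called 1 of the 20 assembly and rRNA modification genes tested, Mrm2, an rRNA methyltransferase, lower in depressive than in euthymic samples over both COX classes (log2 change −8.14, adjusted p = 0.0485, edgeR; background 1.24%). Its level ran from 0 to 0.402 CPM in the depressive (median 0.0939) and from 0 to 161.6 CPM in the euthymic libraries (median 6.64), and the groups overlapped. Limma voom, and edgeR fitted to the groups of this contrast alone, called 0.0% of all genes here, so Mrm2 was not called by either.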

How the data were processed

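The authors deposited raw read counts, per the labels, in 1 table per assay and region: counts per merged peak for ATAC-seq (4 libraries) and H3K27ac ChIP-seq (16 libraries in 4 regions), and counts per Ensembl gene for RNA-seq (20 libraries, Nugen Ovation SoLo). For all assays together, the build mm10 and the tools DESeq2, featureCounts, HOMER, STAR and Subread are listed in the submitters' processing notes. Which features RNA reads were counted over, and whether by strand, is not given in the sources used here. The 4 input samples were not analysed here. Of 53715 RNA identifiers, 53620 matched a symbol.

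Peaks within 1000 bp of a gene end were assigned to genes from the RefSeq table for GRCm38.p6, the same assembly as mm10. Each table was fitted whole with edgeR 4.0.16 (trimmed-mean scaling, filterByExpr, robust quasi-likelihood test, 2-sided, R 4.3.3), with Benjamini-Hochberg adjustment over all peaks or genes tested and a threshold of 0.05. The 5 RNA groups shared 1 fit, and RNA columns were matched to groups by name. CPM values use library sizes after scaling. The scripts were tested on simulated counts. Alternatives were DESeq2 1.42.0, limma 3.58.1 (voom with quality weights), other size factors and filters, other windows, and leaving out each library. For the region contrasts the called peak length was also used as an offset. Same-numbered WT and Polg(D181A) libraries did not deviate together (correlations of −0.0514, −0.0124, 0.0168, −0.0267 and −0.0443 in the ATAC, PVT, COR, CP and NAC tables).

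Named by rule were called genes, or else the 3 of smallest p in each table or contrast, genes with no peak, the 4 highest and 4 lowest levels, and Mrpl12, Mrpl58, Mrps36 and Mrps18a to Mrps18c in every case. The genes and lists were chosen with earlier results of these data known.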

Additional observations from a re-analysis of the deposited data

Results flagged for a closer look

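Examined were the genes of smallest p in the RNA contrasts, with the number of the 78 genes with a count and their median CPM per library. The highest or lowest of the 4 libraries of a group stood apart from the others in 19 of 56 groups examined. It was the highest value 18 times and the lowest 1 time. A library was taken to stand apart when its gap to the nearest one exceeded 0.829 of the range of the group, which chance gives in about 1 in 20 groups. The 19 of 56 is not to be read against that share: the genes were named for a small p, and a library enters under several genes. Over all 28446 genes tested, a library stood apart in 19.7% of groups, and over the 64 tested here in 25.6%. Values are log2(CPM + 1), with the nearest library after each.

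In WT euthymic COX-positive libraries this held for Mrpl21 (4.03, nearest 0.882). In Polg(D181A) euthymic COX-negative libraries it held for Mrps14 (7.71, nearest 0.413), Mrpl9 (8.97, nearest 0.376), Mrpl36 (3.8, nearest 0.213) and Mrpl50 (1.22, nearest 0.347). In Polg(D181A) euthymic COX-positive libraries it held for Mrpl9 (1.07, nearest 0.141), Mrpl35 (7.61, nearest 0.808), Mrpl23 (0.421, nearest 0.121), Mrps18a (7.31, nearest 0.546) and Mrpl30 (3.35, nearest 0.502). There the median CPM over the 78 genes was also low in 1 library (0.121, nearest 0.228). In Polg(D181A) depressive COX-positive libraries it held for Mrpl23 (5.19, nearest 0.741), Mrpl35 (1.69, nearest 0.429), Mrpl50 (3.61, nearest 0.286) and Mrpl30 (3.24, nearest 0.102). In Polg(D181A) depressive COX-negative libraries it held for Mrpl54 (4.69, nearest 0.0754), Mrpl44 (6.77, nearest 0.0382), Mrpl9 (3.3, nearest 0.364) and Mrpl50 (5.17, nearest 0.337).

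Overlapping H3K27ac peaks of 3 genes had both Polg(D181A) libraries on opposite sides of both WT libraries in a pair of regions. The peak of Mrpl38 had a log2 change of 0.679 in the PVT and of −3.96 in the COR. That of Mrpl58 had −3.2 in the COR, 3.77 in the CP and 3.94 in the NAC. A peak of Mrps33, other than its peaks of smallest p given above, had 0.601 in the COR and −0.677 in the NAC. Genotypes failed to overlap in 30.3% to 41.4% of all gene-end peaks of an H3K27ac table, and the share of all genes with opposite directions was not computed. These differences between regions were not tested, and none of the changes passed by edgeR in its own table.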

How the results depend on the processing

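edgeR called 0 peaks or genes in all 15 counts of calls, and the count became larger with other settings. With DESeq2 it was 4 in PVT, 3 in COR, 9 in CP and 1 in NAC H3K27ac. In RNA, DESeq2 gave 6 and 5 for COX class in euthymic and depressive samples, 1 and 6 for state in COX-positive and COX-negative samples, 3 for the COX average and 4 for the state average. With low counts left unfiltered, edgeR called 1 of 78 genes for COX class in euthymic samples (Mrps14, 1.28%, background 0.899%). It called 3 (3.85%) for state in COX-negative samples (background 2.3%). It also called 3 (3.85%) for the COX average (background 3.2%) and 3 (3.85%) for the state average (background 3.71%). For the COX average, DESeq2 size factors gave 2 of 64 (3.12%, background 1.33%). A filter of 10 counts in at least 8 libraries gave 2 of 51 there (3.92%, background 1.27%). Leaving out each library in turn gave 0 calls in the RNA and region counts. In the genotype counts of chromatin this leaves 1 library in a genotype, and only the CP count moved. With at least 10 counts in every library, the genes with a gene-end peak fell to 34 in the COR (43.6%, against 38% of all genes), 12 in the CP (15.4% against 11.7%) and 23 in the NAC (29.5% against 27.2%).

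Of 36 named log2 changes, 5 crossed 0 when 1 library was left out. They ran from −0.849 to 11.3 for Mrpl9 (COX class, euthymic), from −0.367 to 8.70 for Mrpl54 and from −3.01 to 8.04 for Mrpl44 (COX class, depressive), and from −8.39 to 0.302 for Mrps18a and from −7.31 to 1.14 for Mrpl35 (state, COX-positive). With limma voom Mrpl44 was at −0.107. A replicate block gave 0 calls among these genes in each chromatin comparison and changed no call of theirs. Its use for the region contrasts, and the count of peaks near a gene end or a start site (75, 61, 55, 48 and 58 genes in the ATAC, PVT, COR, CP and NAC tables), were chosen after seeing the data. No paired analysis was possible for RNA because the RNA columns carry no replicate number. Libraries at 0 were most frequent in the CP and the NAC, and the cause of the differences between settings was not tested.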
